A study of Homo sapiens with 4 samples.

Results

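S100 proteins are small calcium-binding proteins of vertebrates that carry a pair of EF-hand motifs and act mostly as dimers. On binding calcium most of them expose a surface that docks on partner proteins such as annexins, and several are also secreted and signal through receptors such as AGER (RAGE) and TLR4. In skin and breast some members belong to ordinary epithelial cells, while S100A7, S100A8 and S100A9 are best known from inflamed or transformed epithelium and, for S100A8 and S100A9, from myeloid cells.

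The 9 genes described here are S100A6, S100A7, S100A8, S100A9, S100A10, S100A11, S100A13, S100A14 and S100P. They were taken as every probe set whose platform annotation names 1 of these symbols and no other gene, which gave 13 of the 54675 probe sets on the array. RNA came from MDA-MB-361, an established human breast cancer line, with 1 Affymetrix U133 Plus 2.0 array per derivative. Derivatives IBC-I, IBC-II and IBC-III each express a different shRNA (short hairpin RNA) against DCD from the lentiviral vector pLKO, and these names were matched by number to clones 1, 2 and 3 of the labels. The control, called pLKO, carries the vector without such a hairpin, so vector infection is shared by all 4 arrays. The labels speak of clones and the study also of pools, so how many founder cells stand behind a derivative is not known here. The same pLKO array enters all 3 comparisons.

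The arrays differed in brightness and in signs of RNA quality. Median intensity was 20.0 (IBC-I), 24.7 (IBC-II) and 13.4 (IBC-III), against 20.6 for pLKO. The 3′ over 5′ ratio of the ACTB control probe sets, which degraded RNA raises, was 9.67 (IBC-I), 2.58 (IBC-II) and 42.6 (IBC-III), against 5.29 for pLKO. DCD itself lay at 7.0 or less on every array, under the floor of 16 set for low values, so the knockdown cannot be checked here. The 7 markers of luminal breast epithelium were all measured, whereas the basal keratins KRT5 and KRT14 lay at 9.0 or less on every array. Of 5 basal markers listed, only these 2 had a probe set naming no other gene, so KRT6A, KRT17 and TP63 were not assessed.

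Of the 9 genes, 6 were measurable: S100A6, S100A10, S100A11, S100A13, S100A14 and S100P. They had 7 probe sets in the brighter part of the array (mean log2 value not under the median of all probe sets), the part that was tested. S100A7, S100A8 and S100A9 had none. On bulk arrays, fewer cells that express a gene and less RNA per cell cannot be told apart.

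**Figure D1:**
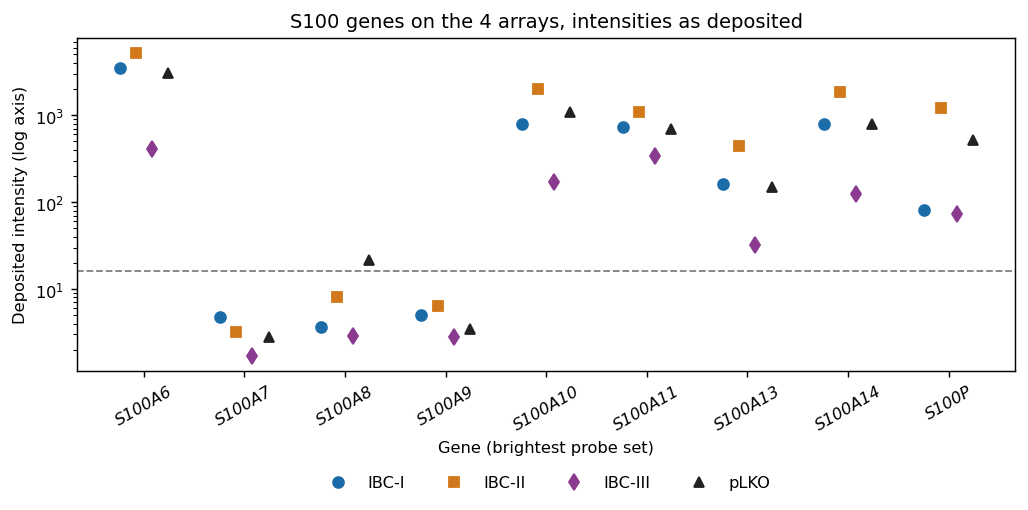
Deposited intensity (log axis) of the brightest probe set of each of the 9 S100 genes on each array (circle, IBC-I; square, IBC-II; diamond, IBC-III; triangle, pLKO). The dashed line is the floor of 16, under which S100A7 and S100A9 lie on every array; S100P lies at 81.3 on IBC-I and 1221.5 on IBC-II, with pLKO at 516.5.

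S100A7 (psoriasin), an antimicrobial protein abundant in psoriatic skin, had an intensity of 4.7 on IBC-I, 3.2 on IBC-II and 1.7 on IBC-III, against 2.8 on pLKO. S100A9, which pairs with S100A8 to form the metal-withholding protein calprotectin, had 5.0 on IBC-I, 6.3 on IBC-II and 2.8 on IBC-III, against 3.5 on pLKO. Neither gene could be told from background on any array. S100A8 had 3.7 on IBC-I, 8.1 on IBC-II and 2.9 on IBC-III by its brighter probe set, against 21.4 on pLKO, and its other probe set lay at 2.4 or less throughout. It was thus above the floor on pLKO alone, by 1 of its 2 probe sets, and after normalization at least 1.25-fold below pLKO with each hairpin, a gap that was not tested. Of 8 markers of myeloid cells, which also hold S100A8 and S100A9, 5 were tested. All probe sets of the 8, many of them under the floor, were summed. The sum was 218.4 for IBC-I, 337.0 for IBC-II and 184.3 for IBC-III, beside 271.9 for pLKO. CD14 lay at 2.3 or less and PTPRC at 17.9 or less on every array, and neither was tested. Of the tested myeloid markers, CSF3R had 11.8 on IBC-I, 40 on IBC-II and 3.5 on IBC-III, against 67.4 on pLKO, and like S100A8 was highest on pLKO. CYBB had 20.5 on IBC-I, 26.1 on IBC-II and 21.8 on IBC-III, against 33.3 on pLKO, where it was also highest as deposited. After normalization CYBB was 1.07-fold above pLKO for IBC-III. FCGR3B, ITGAM and LYZ reached at most 42.6, 33.4 and 35.6 and lay at the floor on pLKO after normalization. The part of myeloid RNA in the S100A8 values was not tested.

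S100A6 (calcyclin), which binds annexins and the adaptor CACYBP, had an intensity of 3476 on IBC-I, 5171 on IBC-II and 408.9 on IBC-III, against 3066 on pLKO. S100A14, a member found mainly in epithelia, had 785.5 on IBC-I, 1860 on IBC-II and 124.2 on IBC-III, against 781.6 on pLKO. For both genes IBC-II was highest, IBC-III lowest and IBC-I close to pLKO. S100A13, which takes part in the release of FGF1, had 161.2 on IBC-I, 439.2 on IBC-II and 31.8 on IBC-III, against 150.3 on pLKO. S100A10 (p11), which binds annexin A2 without needing calcium, had 796.7 on IBC-I, 2003 on IBC-II and 169.1 on IBC-III, against 1076.5 on pLKO. S100A13 had the same order of arrays as S100A6 and S100A14, and S100A10 differed in lying lower on IBC-I than on pLKO before normalization.

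After quantile normalization these 4 genes lay above pLKO with the IBC-I and IBC-II hairpins and below it with IBC-III. S100A6 was 1.83-fold above pLKO for IBC-I, 1.56-fold above for IBC-II and 2.60-fold below for IBC-III. S100A14 was 1.68-fold above for IBC-I, 1.76-fold above for IBC-II and 2.37-fold below for IBC-III. These courses were nearly alike, with a root mean square distance of 0.12 between the log2 values of both genes, each centred on its mean over the 4 arrays. S100A13 was 1.57-fold above for IBC-I, 2.10-fold above for IBC-II and 2.33-fold below for IBC-III. S100A10 was 1.26-fold above for IBC-I, 1.41-fold above for IBC-II and 2.32-fold below for IBC-III. Among the 4 genes no distance exceeded 0.26, whereas S100A11 lay at 0.73 or more and S100P at 1.06 or more from each of them. The 4 were grouped by these same courses, and how common such closeness is among all genes was not tested. CAPNS1, an EF-hand gene outside the family named after its values were seen, also ran close to S100A10. Its log2 differences were 0.34 for IBC-I, 0.48 for IBC-II and -1.51 for IBC-III, beside 0.33, 0.49 and -1.21 for S100A10. The direction of S100A10 for IBC-I depended on the scaling, with a log2 difference of 0.33 after quantile normalization, -0.39 with median centring and -0.43 as deposited. The other signs of these 4 genes were the same under the 3 scalings.

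The promoters of these 4 genes and of S100P, which took another course, are shown for comparison as the 250 bases before each gene's start, 5′ to 3′ on the gene's strand (RefSeq, GRCh38.p14). Capitals mark the TATA box (TATAAA) and the GC box (GGGCGG), searched on both strands, and overlapping GC boxes run together. The windows are chr1:153535992-153536241 for S100A6, chr1:151993860-151994109 for S100A10, chr1:153634362-153634611 for S100A13 and chr1:153616326-153616575 for S100A14, all on the minus strand, and chr4:6693628-6693877 on the plus strand for S100P.
S100A6: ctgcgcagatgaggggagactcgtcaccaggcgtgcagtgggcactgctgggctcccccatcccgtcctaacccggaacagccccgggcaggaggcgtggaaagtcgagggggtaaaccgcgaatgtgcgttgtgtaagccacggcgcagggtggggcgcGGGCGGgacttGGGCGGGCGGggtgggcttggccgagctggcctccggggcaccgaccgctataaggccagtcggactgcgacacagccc
S100A10: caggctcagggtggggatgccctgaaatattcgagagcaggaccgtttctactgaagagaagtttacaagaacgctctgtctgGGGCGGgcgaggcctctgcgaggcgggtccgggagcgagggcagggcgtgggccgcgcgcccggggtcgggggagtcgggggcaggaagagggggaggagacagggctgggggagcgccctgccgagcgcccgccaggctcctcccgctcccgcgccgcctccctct
S100A13: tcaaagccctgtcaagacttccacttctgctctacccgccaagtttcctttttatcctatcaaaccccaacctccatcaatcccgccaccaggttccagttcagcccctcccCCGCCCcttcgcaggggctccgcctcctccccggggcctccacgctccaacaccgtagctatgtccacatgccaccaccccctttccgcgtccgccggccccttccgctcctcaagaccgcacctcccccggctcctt
S100A14: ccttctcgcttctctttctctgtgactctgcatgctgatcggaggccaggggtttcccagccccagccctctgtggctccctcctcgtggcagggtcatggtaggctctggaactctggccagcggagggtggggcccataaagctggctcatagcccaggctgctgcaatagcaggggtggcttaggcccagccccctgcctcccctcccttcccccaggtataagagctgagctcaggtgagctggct
S100P: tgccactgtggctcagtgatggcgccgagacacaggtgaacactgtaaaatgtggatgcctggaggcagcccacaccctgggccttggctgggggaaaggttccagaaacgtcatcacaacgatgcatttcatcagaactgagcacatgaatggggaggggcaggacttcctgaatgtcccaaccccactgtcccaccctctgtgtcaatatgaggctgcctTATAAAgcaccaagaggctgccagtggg

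All 9 members had a promoter in the table. TATAAA stood in S100P, S100A7 and S100A9, starting 28, 28 and 29 bases before the gene, and in 11.1% of all 27305 promoters of this length. The 4 genes with like courses had no match to these exact letters. S100A6 and S100A14 hold TATAAG, which differs in the last letter and was not searched, so a TATA box is not excluded there. GGGCGG stood in 5 of the 9, namely S100A6 (3 matches, 2 of them overlapping), S100A9, S100A10, S100A11 and S100A13, and in 42.3% of all promoters. S100A14 and S100A8 held neither. The AP-1 site TGANTCA and the STAT site TTCNNNGAA matched 0 of 9 members, beside 6.60% and 6.78% of all promoters. These are matches of letters in a window.

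S100A11 (calgizzarin), a partner of annexin A1 with a part in growth control of keratinocytes, varied least between the hairpins. Its intensity was 739.2 on IBC-I, 1075.9 on IBC-II and 337.1 on IBC-III, against 698.3 on pLKO. After normalization S100A11 was 1.75-fold above pLKO for IBC-I, 1.15-fold above for IBC-II and 1.33-fold above for IBC-III. It was the 1 measured member of 6 above pLKO in all 3 comparisons, as were 19.4% of all tested probe sets. For IBC-III its log2 difference of 0.41 turned to -0.43 with median centring and -1.05 as deposited.

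S100P, a secreted ligand of AGER that also binds ezrin inside the cell, spread the widest of the members. Its intensity was 81.3 on IBC-I, 1221.5 on IBC-II and 72.0 on IBC-III, against 516.5 on pLKO. S100P was thus low on both IBC-I and IBC-III and high on IBC-II, with pLKO between them. After normalization it was 4.21-fold below pLKO for IBC-I, 1.74-fold above for IBC-II and 2.88-fold below for IBC-III, with the same directions under all 3 scalings. For IBC-I the other 5 measured members lay above pLKO while S100P lay below it. S100P was the 1 member at least 3-fold below pLKO for IBC-I, as were 2.41% of all tested probe sets.

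**Figure D2:**
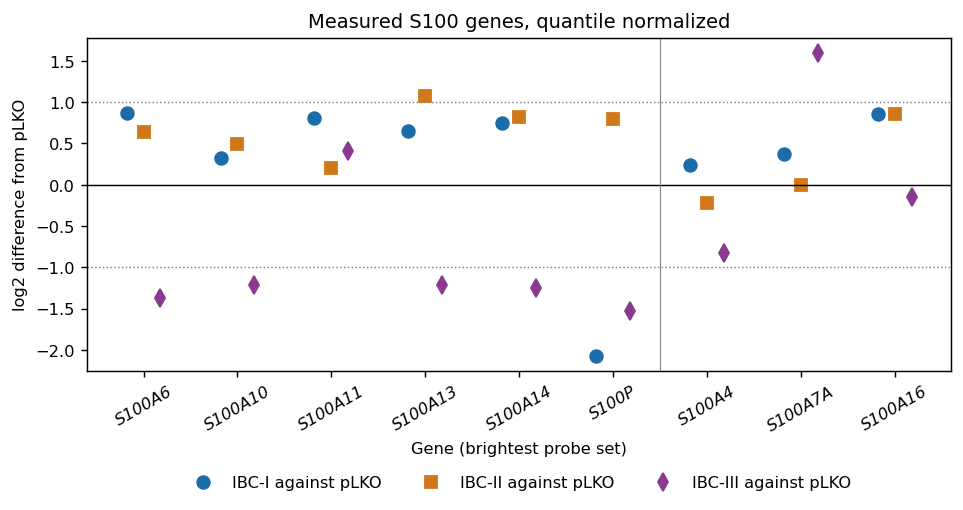
log2 difference of normalized intensity from pLKO for the 6 measured members and, right of the vertical line, 3 further S100 genes (circle, IBC-I; square, IBC-II; diamond, IBC-III). Dotted lines mark 2-fold; S100A6, S100A10, S100A13 and S100A14 lie above 0 for IBC-I and IBC-II and below -1 for IBC-III, while S100P lies at -2.07 for IBC-I.

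Over the 6 measured members, 5 were at least 2-fold lower than pLKO for IBC-III (all but S100A11) and 0 were higher by that much, beside 21.3% and 19.4% of all tested probe sets. Among probe sets in the upper quartile of brightness, a limit chosen after seeing the data, 25.1% were lower by that much. For IBC-II, 1 member, S100A13, was at least 2-fold higher and 0 lower, beside 3.61% and 4.09% of all tested probe sets. For IBC-I, 0 were at least 2-fold higher and 1, S100P, lower, beside 8.38% and 10.2%.

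By any size, 6 of 6 members were higher than pLKO for IBC-II and 5 of 6 for IBC-I, beside 49.8% and 49.2% of all tested probe sets. Both higher for IBC-II and lower for IBC-III were 5 of 6, beside 23.1% of all tested probe sets and 26.1% of that upper quartile. After quantile normalization the members' median log2 difference was 0.70 for IBC-I, 0.72 for IBC-II and -1.23 for IBC-III. The median of all tested probe sets lay at 0.00 each time. For IBC-I the members' median was only 0.04 as deposited and 0.09 with median centring. That of all tested probe sets was -0.38 and -0.33 under these scalings. In all 3 comparisons 0 members were at least 2-fold higher or lower (0.634% and 0.769% of all tested probe sets), and 0 at least 3-fold higher or lower (0.0366% and 0.179%), the study's own rule. By any size 1 was higher and 0 lower throughout, beside 19.4% and 20.0%.

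The luminal markers were set beside the members. After quantile normalization 7 of 7 were higher than pLKO for IBC-I and IBC-II, beside 49.2% and 49.8% of all tested probe sets. For IBC-III 4 of 7 were at least 2-fold lower, beside 21.3%. The medians of the 7 were 0.57, 0.58 and -1.15 on the log2 scale for IBC-I, IBC-II and IBC-III. The 4 lower for IBC-III, KRT19, EPCAM, CDH1 and ERBB2, also lay below pLKO for IBC-I as deposited. Their intensities on IBC-I were 1752.5, 2064.4, 4183.8 and 2449.6, against 2837.8, 3082.0, 4789.5 and 3372.6 on pLKO. The other 3 were above pLKO for IBC-III after normalization, KRT8 by 1.28-fold and KRT18 by 1.85-fold, both below pLKO as deposited, and GATA3 by 7.32-fold. GATA3, a luminal transcription factor, had an intensity of 3460 on IBC-I, 3990 on IBC-II and 3698 on IBC-III, against 1239 on pLKO. The luminal markers' summed intensity was 26474 on IBC-I, 41847 on IBC-II and 13213 on IBC-III, against 25095 on pLKO. The ACTB ratio was also highest on IBC-III and lowest on IBC-II, and its part in the members' differences was not tested.

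limma was fitted to the 3 shRNA arrays and the lone pLKO array, which it assumes to vary like them. No member passed, with a limma adjusted p of 0.9998 for each of the 7 tested probe sets. Over all tested probe sets limma called 0 in either direction, with 81 higher (0.297%) and 125 lower (0.458%) at an unadjusted p under 0.05 and no member among them. The mean log2 difference was 0.04 ± 1.24 for S100A6, -0.13 ± 0.94 for S100A10, 0.17 ± 1.22 for S100A13, 0.11 ± 1.17 for S100A14, 0.47 ± 0.31 for S100A11 and -0.93 ± 1.52 for S100P (SD, n = 3 hairpins). Except for S100A11 each SD exceeds its mean, since the hairpins lie on both sides of pLKO. Such p-values measure only the spread between these samples, and the number of arrays limits the precision.

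**Figure D3:**
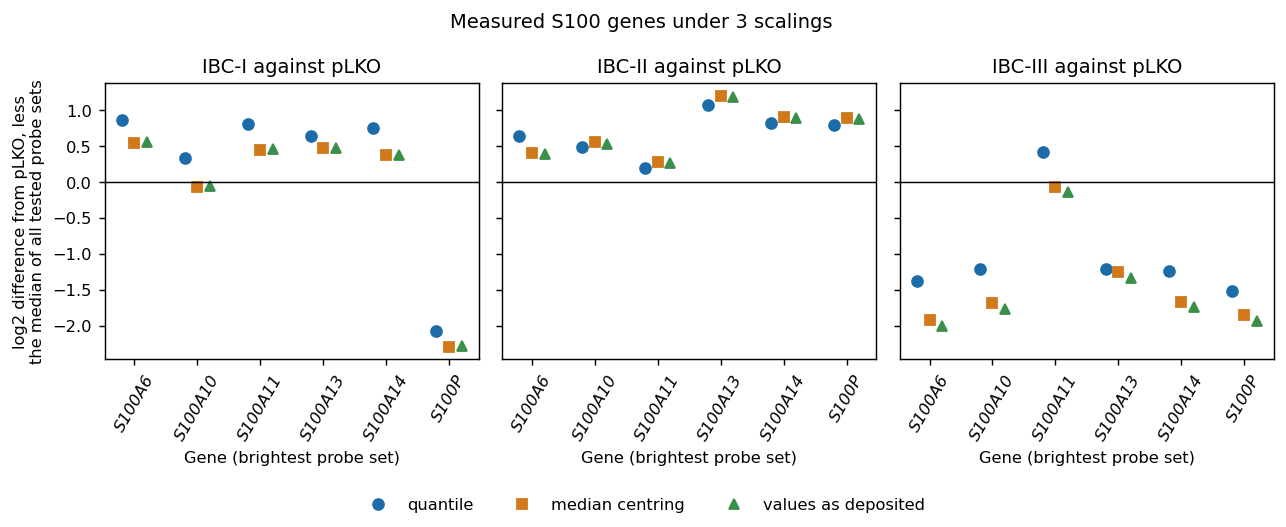
log2 difference from pLKO less the median of all tested probe sets, for the 6 measured members under 3 scalings (circle, quantile; square, median centring; triangle, values as deposited), with 1 panel per hairpin. S100P stays below 0 for IBC-I and above 0 for IBC-II under each scaling, while S100A10 for IBC-I and S100A11 for IBC-III change sides.

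The scaling shifts every gene, so the members were also read against the median of all tested probe sets. In the values as deposited that median was -0.38 for IBC-I, 0.36 for IBC-II and -0.91 for IBC-III. Less that median, the log2 difference of S100P was -2.29 for IBC-I, 0.88 for IBC-II and -1.94 for IBC-III. The members' median on this scale was 0.42 for IBC-I, 0.71 for IBC-II and -1.76 for IBC-III. S100A10 at -0.06 for IBC-I and S100A11 at -0.14 for IBC-III lay close to the median of all tested probe sets.

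The shRNA arrays were also set against each other, which leaves pLKO out. S100P was 7.32-fold higher on IBC-II than on IBC-I, and 15.0-fold higher in the intensities as deposited. After normalization it was the 1 member at least 2-fold higher, beside 9.50% of all tested probe sets. The other 5 differed by at most 1.53-fold after normalization. As deposited S100A10, S100A13 and S100A14 were also at least 2-fold higher on IBC-II, by 2.514-fold, 2.725-fold and 2.368-fold. Between IBC-III and IBC-I, 4 members were at least 2-fold lower on IBC-III, from 2.92-fold for S100A10 to 4.75-fold for S100A6, beside 17.6% of all tested probe sets. S100P was 1.46-fold higher on IBC-III than on IBC-I after normalization and 1.13-fold lower as deposited. Between IBC-III and IBC-II, 5 members were at least 2-fold lower on IBC-III, beside 21.9% of all tested probe sets, and S100A11 was 1.16-fold higher after normalization but 3.19-fold lower as deposited.

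Second probe sets did not always follow the brightest. The other probe set of S100A10, which was tested as well, had an intensity of 37.7 on IBC-I, 25.7 on IBC-II and 27.4 on IBC-III, against 33.3 on pLKO. Its log2 differences of 0.34 for IBC-I, -0.61 for IBC-II and 0.50 for IBC-III ran against the brighter probe set for IBC-II and IBC-III. The second probe sets of S100A6 and S100A13 were not tested and reached at most 25.9 and 28.0.

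Most of these genes lie together on chromosome 1. In the order of protein-coding genes in the RefSeq table (GRCh38.p14), S100A10 and S100A11 are neighbours, and apart from them stands an unbroken run of S100A9, S100A12, S100A8, S100A7A, S100A7, S100A6, S100A5, S100A4, S100A3, S100A2, S100A16, S100A14, S100A13 and S100A1. S100P lies on chromosome 4. Along the run S100A7A, S100A6, S100A4, S100A16, S100A14 and S100A13 were tested. S100A14 and S100A13 sit side by side, and their courses lay at a root mean square distance of 0.13. S100A6 lies several genes away, and its course was nearly as far from that of S100A14, at 0.12.

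**Figure D4:**
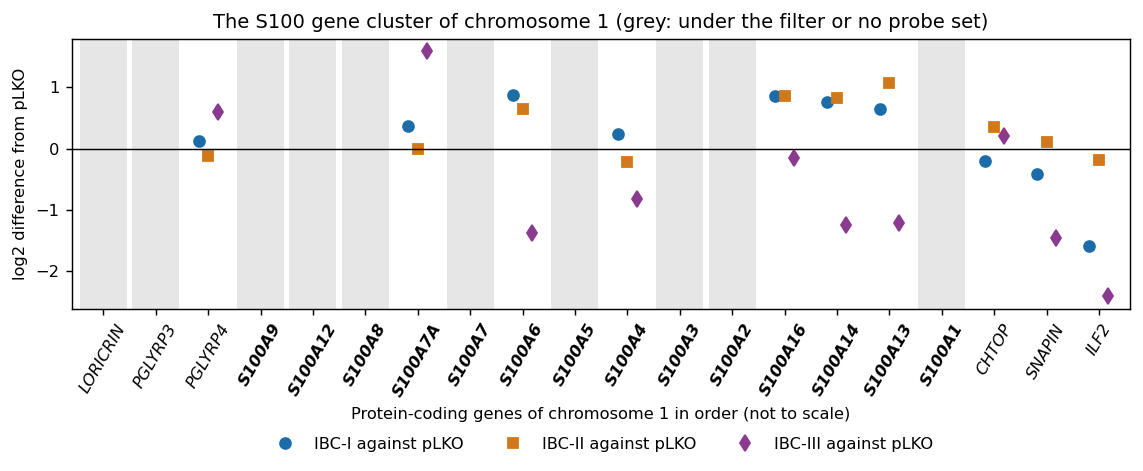
log2 difference from pLKO along the S100 cluster of chromosome 1, with protein-coding genes in order and not to scale (S100 genes in bold; circle, IBC-I; square, IBC-II; diamond, IBC-III). Grey columns mark genes that were not tested; S100A16, S100A14 and S100A13 lie between 0.65 and 1.07 for IBC-I and IBC-II.

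Of 11 S100 genes outside the 9, 3 were tested. S100A16, another epithelial member and the neighbour of S100A14, had an intensity of 2948 on IBC-I, 5238 on IBC-II and 784.9 on IBC-III, against 2703 on pLKO. Its log2 difference was 0.86 for IBC-I, 0.86 for IBC-II and -0.15 for IBC-III, the last being -1.16 with median centring. S100A16 thus had the same order of arrays as S100A6, S100A13 and S100A14. S100A4, a member tied to cell motility, had 92.3 on IBC-I, 118.3 on IBC-II and 31.2 on IBC-III, against 111.4 on pLKO, and its log2 difference was 0.24 for IBC-I (-0.23 with median centring), -0.23 for IBC-II (above pLKO as deposited) and -0.83 for IBC-III. S100A7A, a close relative of S100A7, had 32.4 on IBC-I, 32.7 on IBC-II and 43.4 on IBC-III, against 27.0 on pLKO. For IBC-III it was 3.02-fold higher than pLKO after normalization but 1.61-fold as deposited. The other probe set of S100A7A was not tested and reached at most 19.3. The other 8 genes, S100A1, S100A2, S100A3, S100A5, S100A12, S100B, S100G and S100Z, reached at most 27.8 on any array.

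The proteins that S100 members dock on or signal through were read from a list of 18 genes, of which 17 were tested. In all 3 comparisons 2 were higher and 2 lower than pLKO, beside 19.4% and 20.0% of all tested probe sets, and 13 went both ways. Annexin A2 (ANXA2), the partner of S100A10 and named after its values were seen, had an intensity of 1949 on IBC-I, 5144 on IBC-II and 536.8 on IBC-III, against 2347 on pLKO. It was 1.41-fold above pLKO for IBC-I, 2.02-fold above for IBC-II and 1.44-fold below for IBC-III, the same directions as S100A10. Annexin A1 (ANXA1), the partner of S100A11, had 92.4 on IBC-I, 176.7 on IBC-II and 17.9 on IBC-III, against 159.3 on pLKO. It was lower than pLKO for each hairpin after normalization, by 1.19-fold for IBC-I, 1.17-fold for IBC-II and 4.80-fold for IBC-III, though for IBC-II it was above pLKO as deposited. AHNAK, a giant scaffold bound by S100A10 with annexin A2, had 735.3 on IBC-I, 1277.8 on IBC-II and 315.8 on IBC-III, against 766.7 on pLKO, with log2 differences of 0.66 for IBC-I, 0.33 for IBC-II and 0.20 for IBC-III. As deposited AHNAK was below pLKO for IBC-I and IBC-III, as was a second tested probe set after normalization.

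SUGT1, a co-chaperone that binds S100A6, had an intensity of 300.0 on IBC-I, 579.4 on IBC-II and 439.7 on IBC-III, against 314.2 on pLKO. It was 1.46-fold above pLKO for IBC-I, 1.37-fold above for IBC-II and 3.78-fold above for IBC-III, though below pLKO for IBC-I as deposited, and none of its other tested probe sets was above pLKO for every hairpin. TLR4, a receptor of the S100A8 and S100A9 pair, had 27.0 on IBC-I, 17.8 on IBC-II and 3.8 on IBC-III, against 39.5 on pLKO. It was 1.33-fold below pLKO for IBC-I and at least 2.21-fold below for IBC-II and IBC-III, where it lay at the floor after normalization. AGER, the receptor of S100P, was not tested and reached at most 20.2. limma called 0 of the 17 genes by their brightest probe sets, adjusted or at an unadjusted p under 0.05.

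**Figure D5:**
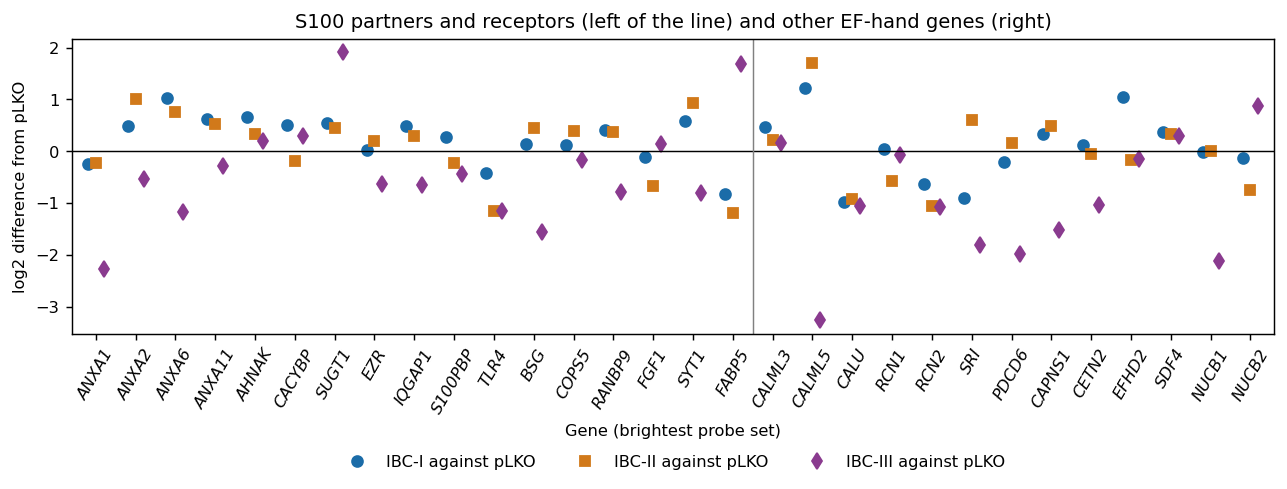
log2 difference from pLKO for 17 partners and receptors of S100 proteins and, right of the line, 13 EF-hand genes outside the family (circle, IBC-I; square, IBC-II; diamond, IBC-III). CALML5 lies at 1.21 for IBC-I, 1.71 for IBC-II and -3.26 for IBC-III.

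EF-hand proteins outside the family had 13 of 16 genes tested. Of the 13, 2 were higher and 2 lower in all 3 comparisons, beside 19.4% and 20.0% of all tested probe sets, and 8 were at least 2-fold lower for IBC-III, beside 21.3%. CALML5, a calmodulin-like protein of skin epithelium named after its values were seen, had an intensity of 545.7 on IBC-I, 1711 on IBC-II and 20.2 on IBC-III, against 374.7 on pLKO. It was 2.32-fold above pLKO for IBC-I, 3.28-fold above for IBC-II and 9.58-fold below for IBC-III, the same directions as S100A14. The reticulum protein RCN2 was 1.54-fold lower than pLKO for IBC-I, 2.08-fold lower for IBC-II and 2.12-fold lower for IBC-III. CALU, of the same compartment, was 1.98-fold lower for IBC-I, 1.90-fold lower for IBC-II and 2.09-fold lower for IBC-III, but its other tested probe sets lay above pLKO for IBC-II. The Golgi protein NUCB1 was 4.34-fold lower for IBC-III, while for IBC-I its log2 difference was -0.02 and its second tested probe set was at least 3.82-fold lower. Sorcin (SRI) was 1.87-fold lower for IBC-I, 1.53-fold higher for IBC-II and 3.49-fold lower for IBC-III, the same directions as S100P. A second tested probe set of SRI went the other way for IBC-I and IBC-II. Its log2 differences were 0.12 for IBC-I, -0.16 for IBC-II and -0.41 for IBC-III.

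Genes of epidermal differentiation, several of which neighbour the S100 genes, were mostly too dim, and 4 of 16 were tested. Transglutaminase TGM3, which crosslinks the cornified envelope, had an intensity of 12.6 on IBC-I, 26.9 on IBC-II and 12.2 on IBC-III, against 43.3 on pLKO. It was at least 2.40-fold lower than pLKO for IBC-I, 1.85-fold lower for IBC-II and 2.21-fold lower for IBC-III. The envelope precursor SPRR1A was also lower, by 1.41-fold for IBC-I, 1.07-fold for IBC-II and 1.64-fold for IBC-III, though above pLKO for IBC-II as deposited. Trichohyalin (TCHH) had 15.8 on IBC-I, 19.6 on IBC-II and 73.6 on IBC-III, against 15.7 on pLKO, so it was above the floor after normalization on IBC-III alone, 4.69-fold above pLKO there as deposited and 8.58-fold after normalization with pLKO at the floor. The elastase inhibitor elafin (PI3) had 20.5 on IBC-I, 25.6 on IBC-II and 29.0 on IBC-III, against 13.1 on pLKO, which lay at the floor. The other probe sets of PI3 and SPRR1A were not tested and reached at most 5.2 and 2.9. Involucrin, loricrin and filaggrin were not tested.

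For S100P, the member with the widest range, the nearest courses over the 4 arrays were sought among the 12727 other genes tested, as a description. The sorting nexin SNX7 lay at a root mean square distance of 0.21, the calcium channel subunit CACNA1H at 0.23 and the lysosomal membrane protein GLMP at 0.24 on the log2 scale. GLMP had an intensity of 21.2 on IBC-I, 150.4 on IBC-II and 16.4 on IBC-III, against 88.5 on pLKO. SNX7 had 11.5 on IBC-I, 143.9 on IBC-II and 1.8 on IBC-III, against 74.6 on pLKO. CACNA1H had 8.6 on IBC-I, 125.0 on IBC-II and 3.1 on IBC-III, against 60.9 on pLKO. SNX7 and CACNA1H lay under the floor on IBC-I and IBC-III, so their distances rest on values set to the floor there and their rank against GLMP cannot be read.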

How the data were processed

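The members and gene lists were chosen with earlier results of these data known. The authors hybridized each RNA to an Affymetrix U133 Plus 2.0 array and named dChip as their software. What they deposited is a linear intensity for every probe set on each array, by a program not given in the sources used here. Because array medians differ, the intensities were treated as lacking normalization between arrays. Zeros were replaced by 0.1, log2 values were quantile normalized, and results under 16 were raised to 16. Without 62 control probe sets, the brighter part (mean log2 value no lower than the median) held 27307 probe sets, which were tested. The platform annotation gave 41097 probe sets 1 gene, 1801 several and 11777 none here, and symbols were updated by gene identifier (GRCh38.p14). The brightest probe set by mean log2 value stands for a gene.

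Each shRNA array was compared with pLKO as a log2 difference, with no p for single comparisons. limma 3.58.1 in R 4.3.3 had 2 residual degrees of freedom, with Benjamini-Hochberg adjustment over all tested probe sets. On simulated arrays with an SD of 0.1 it recovered 100% of 200 probe sets raised 4-fold among 27307 and called 9 unchanged ones. The members' own SD over the hairpins was larger, 0.31 to 1.52, and recovery at such a spread was not tested. An exact permutation test of 3 arrays against 1 cannot give a one-sided p under 0.25 and was not used. Named genes were the 9 members, all other tested S100 genes, up to 4 genes of each list with the largest mean difference in either direction, and the 3 closest to the member of widest range. All other genes named, such as single cell type markers, receptors without a test and neighbours on chromosome 1, lie outside this rule and were chosen after their values were seen, as were the promoter motifs. Alternatives were other scalings, floors of 1 and 64, other filters, arrays left out and each gene as the mean of its probe sets. A trended robust limma fit and a one-sample t-test of the 3 differences from pLKO were also run. Figures were drawn with matplotlib 3.10.9.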

Additional observations from a re-analysis of the deposited data

Results flagged for a closer look

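Some members lay on opposite sides of pLKO with different hairpins under all 3 scalings and at least 2-fold apart. Each hairpin has 1 array, so these differences were not tested. S100P on IBC-II exceeded IBC-I by 2.87 and IBC-III by 2.32 on the log2 scale. Between IBC-II and IBC-III the gap was 2.29 for S100A13, 2.06 for S100A14, 2.02 for S100A6 and 1.70 for S100A10. The part of RNA quality, given above as the ACTB ratio of each array, was not tested.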

How the results depend on the processing

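Of 126 recomputed differences of single members, 118 moved by less than the SD over the hairpins and 8 moved by more. Signs changed for 6, none of them 2-fold in the main analysis. That SD is a loose mark, 0.31 for S100A11 but 1.52 for S100P. S100P for IBC-III, at -1.52 in the main analysis and -2.84 as deposited, counts among the 118. As deposited, the members' median for IBC-III was -2.66, 3 members were at least 2-fold higher or lower for IBC-II in place of 1, and 5 at least 3-fold for IBC-III in place of 0, which median centring also gave (5). With the mean of all probe sets, 0 members were at least 2-fold higher or lower for IBC-II and 2 for IBC-III in place of 5. The count at least 2-fold in all comparisons was 0 to 1 with an array left out, S100P being lower in both others without IBC-II. limma called 1326 probe sets with no filter, 1221 of them (with 1 probe set of S100A8) without any spread among the shRNA arrays, and 393 with a floor of 64, 363 of them without spread. It called 0 under each other limma alternative. A one-sample t-test, which sets the 3 differences from the same pLKO array against 0, also called 0 after adjustment. That t-test had 1246 higher and 1076 lower at an unadjusted p under 0.05. No paired analysis was possible because pLKO has 1 array, with no control of its own for each hairpin. Signal over background sets the depth, with 43.9% of probe sets under 16 for IBC-I, 39.3% for IBC-II and 55.1% for IBC-III, beside 43.4% for pLKO.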

Other observations

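The protein-coding genes that follow the S100 run on chromosome 1 were CHTOP, SNAPIN and ILF2. CHTOP, an RNA export factor, had log2 differences from pLKO of -0.21 for IBC-I, 0.35 for IBC-II and 0.21 for IBC-III, where its deposited intensity was 132.9 against 295.4 on pLKO, so that direction turns with the scaling. SNAPIN, a protein of vesicle fusion, had -0.41 for IBC-I, 0.10 for IBC-II and -1.46 for IBC-III. The RNA-binding protein ILF2 had an intensity of 97.7 on IBC-I, 519.3 on IBC-II and 37.4 on IBC-III, against 440.5 on pLKO, with log2 differences of -1.59 for IBC-I, -0.19 for IBC-II (above pLKO as deposited) and -2.41 for IBC-III.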
